A study of Mus musculus with 8 samples.

Results

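The integrins of the vascular wall are described here as 9 genes, chosen by symbol with earlier results of these data known. Itga1, Itga5, Itga7, Itga8, Itga11 and Itgav encode α subunits, and Itgb1, Itgb3 and Itgb5 encode β subunits. They are 9 of the 35896 genes in the count table, and all 9 passed the filter on low counts, with between 129 and 32567 counts per library. Itga7 and Itga8 were grouped as smooth muscle integrins, and Itga5, Itga11 and Itgav as integrins of matrix remodelling.

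Integrins are receptors that pair an α with a β subunit across the cell membrane and tie the matrix outside the cell to the actin cytoskeleton inside. The α subunit largely sets which matrix protein is bound, so that α1β1 and α11β1 bind collagen, α7β1 binds laminin, α5β1 binds fibronectin, α8β1 binds nephronectin and fibronectin, and the αv integrins bind vitronectin, fibronectin and osteopontin. Contractile smooth muscle cells of the aorta are known for α7β1, α8β1 and α1β1, while α5, α11 and the αv integrins are known from matrix remodelling, fibroblasts and injured vessels.

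The libraries came from aortas of male C57BL6 mice in 4 groups of 2 libraries, and each library pooled tissue of 2 mice. AngII mice carried a subcutaneous osmotic minipump that delivered Angiotensin II at 2.8 mg/kg/day for 2 weeks from 11 weeks of age, and were sacrificed at the end of the infusion. AngII+2W and AngII+3W mice had the same infusion and were followed for a further 2 or 3 weeks after it ended. CTRL mice were untreated littermates of matching age, and the labels do not say at which of these times they were taken. The question was which integrin transcripts differed from CTRL at the end of the infusion, and which still differed after it was stopped. Nothing in the labels names a transgene or a mutation.

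Counts summed to between 18130441 and 21498200 per library, and levels are given as CPM, counts per 1e+06 of the normalised library size. In whole aortic tissue, fewer cells of a type and less RNA per cell cannot be told apart. The summed level of 8 smooth muscle markers was 10645 and 8361 CPM in CTRL, 2004 and 2514 CPM in AngII, 4506 and 4091 CPM at AngII+2W, and 2008 and 3821 CPM at AngII+3W, and none of the 8 was at 0 in any library. AngII+3W replicate 1 stood apart, with 2704 CPM of skeletal muscle markers, against 5.96 to 74.9 CPM in the other libraries, and the highest share of mitochondrial counts (18.3%). Summed cardiac muscle markers ranged from 85.1 CPM at AngII+2W replicate 2 to 6374 CPM at AngII+3W replicate 1, and smooth muscle markers were present in every library beside variable amounts of other muscle.

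Promoter sequences are shown for 3 members whose levels followed different courses: Itga8, Itga5 and Itga11. Each is the 250 bases before the RefSeq start of the gene on GRCm38.p6, written in the sense of the gene, with matches to GGGCGG on either strand in capitals.
Itga8 (chr2:12301945-12302194, minus strand): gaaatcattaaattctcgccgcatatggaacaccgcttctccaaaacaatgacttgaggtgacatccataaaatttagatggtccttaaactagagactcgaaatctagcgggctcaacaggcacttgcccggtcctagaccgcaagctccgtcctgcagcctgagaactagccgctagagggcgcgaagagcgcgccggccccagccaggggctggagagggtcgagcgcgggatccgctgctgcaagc
Itga5 (chr15:103366792-103367041, minus strand): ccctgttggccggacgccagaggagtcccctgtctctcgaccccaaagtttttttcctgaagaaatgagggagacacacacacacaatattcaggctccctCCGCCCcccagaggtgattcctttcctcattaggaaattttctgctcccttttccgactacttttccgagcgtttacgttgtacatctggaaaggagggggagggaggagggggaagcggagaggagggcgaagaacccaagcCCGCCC
Itga11 (chr9:62677605-62677854, plus strand): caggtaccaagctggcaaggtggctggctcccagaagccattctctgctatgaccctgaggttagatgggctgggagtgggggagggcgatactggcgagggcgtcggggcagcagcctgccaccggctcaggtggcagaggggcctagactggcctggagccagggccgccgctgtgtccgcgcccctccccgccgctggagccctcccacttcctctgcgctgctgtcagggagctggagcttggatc

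The motifs searched on both strands were the CArG box, which serum response factor binds, TGANTCA, which AP-1 binds, CATTCC, which TEAD factors bind, and GGGCGG, which Sp1 binds. The RefSeq table held promoters of 7 members, without Itga7 and Itgb3. None of the 4 motifs was found in the windows of Itga1, Itga8, Itga11 or Itgav. GGGCGG occurred in the windows of Itga5 (2 matches), Itgb1 (1 match) and Itgb5 (3 matches), and in 32.7% of the 32851 mouse promoters of the same length. CATTCC occurred in the window of Itgb1 alone among the 7, and in 12.6% of all promoters. The CArG box and TGANTCA, in 1.47% and 6.75% of all promoters, had no match in the 7 windows. These are matches of letters, and binding was not measured.

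At the end of the infusion Itga8, Itga7 and Itgb3 were lower than in CTRL, and no member was higher at an FDR below 0.05. The fall was 5.36-fold for Itga8, 2.53-fold for Itgb3 and 1.51-fold for Itga7. After the infusion Itga8 was lower than CTRL in AngII+3W by 4.27-fold, and no member passed the test in AngII+2W. Thus 3 of 9 members passed at the end of the infusion, where 5.10% of 17182 genes did (2.20% lower and 2.90% higher), 0 of 9 in AngII+2W, where no gene of the table did, and 1 of 9 in AngII+3W, where 0.285% did (0.268% lower). In AngII+2W, DESeq2 called 2 members and edgeR's likelihood ratio test 1, and the shares of all genes they called are not given here. The 3 comparisons share the CTRL libraries. Without regard to multiple testing, 5 members had a p below 0.05 in AngII, of which 4 were lower (9.29% of all genes) and 1 higher (10.9%). The number lower at that p was 3 in AngII+2W (6.18% of all genes) and 6 in AngII+3W (7.18%), with 0 higher. The median log2 fold change of the 9 members was -0.59, -0.39 and -0.67 in the 3 groups, and that of all genes tested was -0.01, 0.00 and 0.03.

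**Figure D1:**
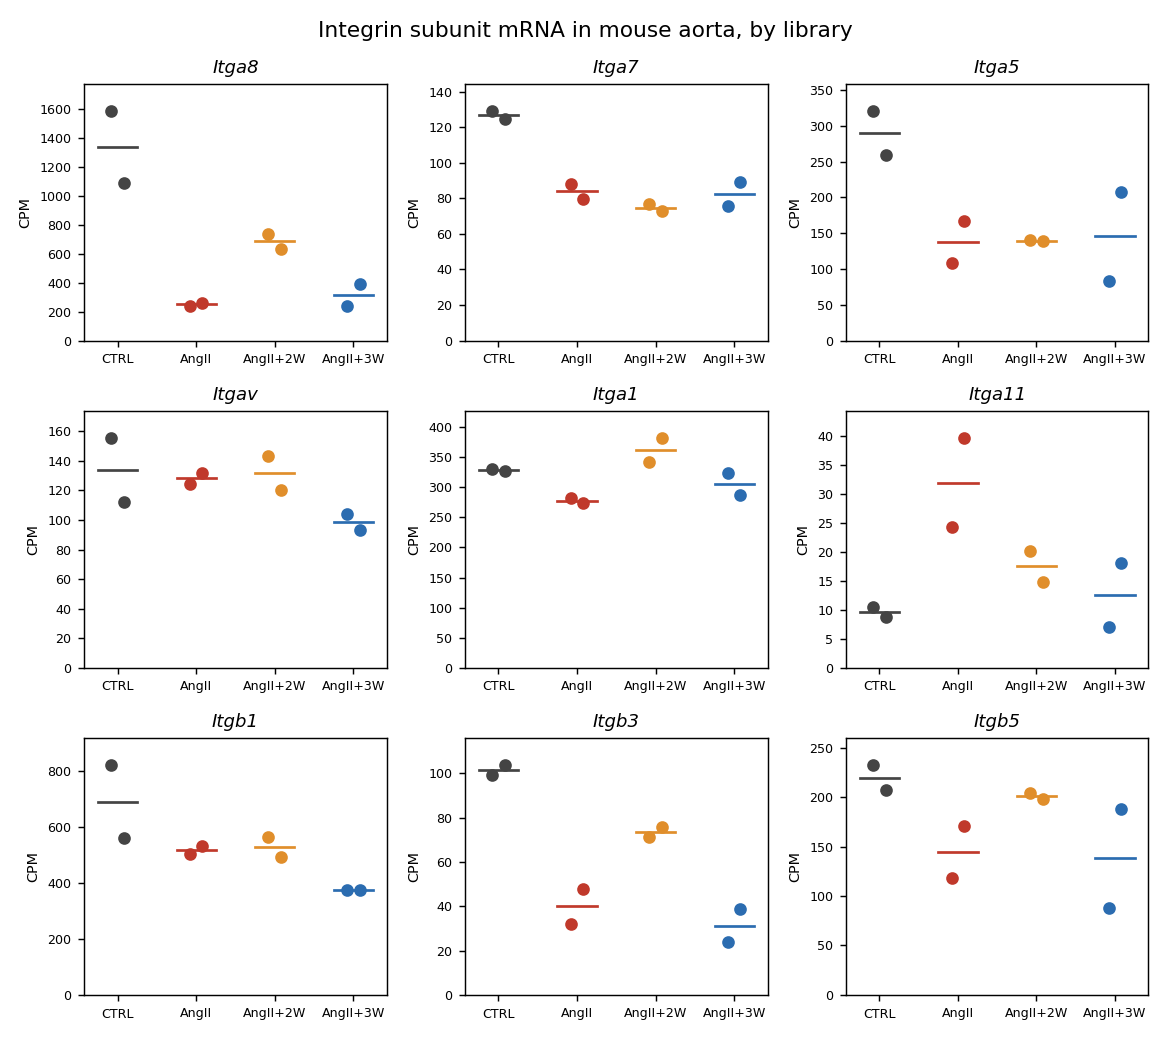
Levels of the 9 integrin genes in CPM (linear axes from 0), with 1 point per library and a line at the mean of the 2 libraries of each group. Itga8 fell from 1087 to 1587 CPM in CTRL to 237 to 262 CPM in AngII and lay at 634 to 737 CPM at AngII+2W, while Itga11 ran from 8.75 to 10.5 CPM in CTRL to 24.2 to 39.5 CPM in AngII.

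Itga8 encodes α8, the receptor subunit for nephronectin, which partners β1 in smooth muscle and mesangial cells. The gene (ENSMUSG00000026768) lies on the minus strand of chromosome 2 at 12106632 to 12301922 on GRCm38. It measured 1587 and 1087 CPM in CTRL, 237 and 262 CPM in AngII, 737 and 634 CPM at AngII+2W, and 236 and 390 CPM at AngII+3W. No library of any AngII group reached the CTRL range, and both AngII+2W libraries lay above all 4 libraries of AngII and AngII+3W. The log2 fold change against CTRL was -2.42 ± 0.29 (SE) in AngII (edgeR quasi-likelihood test with Benjamini-Hochberg adjustment, FDR = 0.00897). It was -2.09 ± 0.29 in AngII+3W (edgeR, FDR = 0.0455) and -0.96 ± 0.28 in AngII+2W, which did not pass (edgeR, FDR = 0.303). The difference in AngII+2W passed with DESeq2 (FDR = 0.0156) and under no other choice. Between AngII+2W and AngII the log2 difference was 1.46 ± 0.28 (edgeR, FDR = 0.0752, and 0.0298 or 0.0315 without AngII+3W replicate 1 or 2), and AngII+3W differed from AngII+2W by -1.13 ± 0.28 (edgeR, FDR = 0.391, and 0.0373 without AngII+3W replicate 2).
The call in AngII was lost without CTRL replicate 1, AngII replicate 1 or AngII replicate 2. In these fits fewer of all genes passed than with every library included. The log2 fold changes were -2.68 to -2.12 over all 8 omissions of a library. The call in AngII+3W was lost without any of CTRL replicate 1, either AngII library, either AngII+2W library or AngII+3W replicate 1. Fewer of all genes passed in these fits too. It was also lost with scaling by library totals alone (edgeR, FDR = 0.0611) and in a fit of CTRL and AngII+3W alone (edgeR, FDR = 0.262). The log2 fold changes were -2.50 to -1.79 over the omissions.

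The smooth muscle markers moved with Itga8, and 7 of 8 were lower in AngII, 0 at AngII+2W and 4 at AngII+3W at an FDR below 0.05. Over all genes 2.20% were lower in AngII and 0.268% at AngII+3W, and none passed at AngII+2W. There all 8 markers were lower at an unadjusted p below 0.05 (edgeR), as were 6.18% of all genes, with a median log2 fold change of -1.08. Per 1000 CPM of these markers, Itga8 measured 149 and 130 CPM in CTRL, 118 and 104 CPM in AngII, 163 and 155 CPM at AngII+2W, and 117 and 102 CPM at AngII+3W. On this scale the 4 libraries of AngII and AngII+3W were below CTRL, by less than on the CPM scale, and both AngII+2W libraries were above it. The part of the smooth muscle markers in the change of Itga8 was not tested. The 3 genes whose log2 CPM followed Itga8 most closely over the 8 libraries, among 11725 genes, were Cpe (Pearson's r = 0.993), which encodes carboxypeptidase E, the sulfotransferase gene Chst3 (r = 0.992), and Kcnmb1 (r = 0.992), the β1 subunit gene of the large-conductance potassium channel of smooth muscle. These values describe 8 libraries that share 4 group differences.

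Itga7 encodes α7, a laminin receptor of smooth, cardiac and skeletal muscle. The gene (ENSMUSG00000025348) lies on the plus strand of chromosome 10 at 128933818 to 128958282. It measured 129 and 124 CPM in CTRL, 88.3 and 79.8 CPM in AngII, 76.6 and 72.9 CPM at AngII+2W, and 75.6 and 89.0 CPM at AngII+3W. All 6 libraries of the AngII groups lay below both CTRL libraries, and in contrast to Itga8 there was no higher level in AngII+2W than in AngII. The log2 fold change was -0.59 ± 0.13 in AngII (edgeR, FDR = 0.0438), -0.76 ± 0.13 in AngII+2W (edgeR, FDR = 0.174) and -0.62 ± 0.13 in AngII+3W (edgeR, FDR = 0.101). The difference in AngII+2W passed with DESeq2 (FDR = 0.000887), with the likelihood ratio test (FDR = 0.00520) and without AngII+3W replicate 1 or 2. That in AngII+3W passed with DESeq2 (FDR = 0.00584) and the likelihood ratio test (FDR = 0.0267). Neither passed under another choice. The log2 difference of AngII+2W from AngII was -0.17 ± 0.13 (edgeR, FDR = 0.616).
The call in AngII was lost without any of CTRL replicate 1 or 2, AngII replicate 1 or 2, or AngII+2W replicate 1 or 2. In these fits fewer of all genes passed than with every library included. It was also lost with scaling by library totals alone (edgeR, FDR = 0.0849) and in a fit of CTRL and AngII alone (edgeR, FDR = 0.0734). The log2 fold changes were -0.67 to -0.52 over all 8 omissions.

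Itga7 fell by less than the smooth muscle markers. Per 1000 CPM of those markers it measured 12.1 and 14.9 CPM in CTRL, 44.0 and 31.8 CPM in AngII, 17.0 and 17.8 CPM at AngII+2W, and 37.6 and 23.3 CPM at AngII+3W, so that all 6 libraries of the AngII groups lay above CTRL on this scale. The genes most like Itga7 over the 8 libraries were Dynlrb1 (r = 0.977), a dynein light chain gene, the phosphatase gene Dusp8 (r = 0.957), and Atf3 (r = 0.948), which encodes a stress-induced transcription factor. Skeletal and cardiac muscle also express Itga7. Summed cardiac muscle markers were 5599 and 2487 CPM in CTRL, 1511 and 960 CPM in AngII, and 254 and 85.1 CPM at AngII+2W. Itga7 followed the same order over these libraries. AngII+3W replicate 1, with the most of both kinds of marker, measured 75.6 CPM of Itga7, less than replicate 2 of its group. The part of other muscle in the level of Itga7 was not tested. Mettl7b overlaps exons of Itga7 on the opposite strand and had between 1 and 7 counts per library.

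Itga5, the gene of the fibronectin receptor subunit α5, did not move with Itga11. The gene (ENSMUSG00000000555) lies on the minus strand of chromosome 15 at 103344286 to 103366763. It measured 321 and 259 CPM in CTRL, 108 and 168 CPM in AngII, 140 and 139 CPM at AngII+2W, and 83.5 and 208 CPM at AngII+3W. All 6 libraries of the AngII groups lay below CTRL, and the AngII+3W pair differed by more than the means of the 3 AngII groups did. The log2 fold changes were -1.07 ± 0.40, -1.05 ± 0.40 and -0.99 ± 0.40 in AngII, AngII+2W and AngII+3W, and none passed the test (edgeR, FDR = 0.180, 0.397 and 0.360). The difference in AngII passed without AngII+3W replicate 1 or 2 (edgeR, FDR = 0.0256 and 0.0265) and with DESeq2 (FDR = 0.0275). That in AngII+3W was -1.79 without AngII+3W replicate 2 (edgeR, FDR = 0.0314) and -0.49 without replicate 1 (edgeR, FDR = 0.593). Per 1000 CPM of smooth muscle markers Itga5 measured 30.1 and 31.0 CPM in CTRL, 53.7 and 66.7 CPM in AngII, 31.1 and 34.0 CPM at AngII+2W, and 41.6 and 54.5 CPM at AngII+3W. On this scale AngII and AngII+3W lay above CTRL, and AngII+2W was close to it. The genes most like it were Wtip (r = 0.995), which encodes an adhesion-associated LIM protein, the myosin gene Myo9b (r = 0.991), and Ano6 (r = 0.989), a scramblase gene.

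Itga11 encodes α11, a receptor for fibrillar collagen on fibroblasts. The gene (ENSMUSG00000032243) lies on the plus strand of chromosome 9 at 62677826 to 62783982. It measured 10.5 and 8.75 CPM in CTRL, 24.2 and 39.5 CPM in AngII, 20.1 and 14.8 CPM at AngII+2W, and 6.93 and 18.1 CPM at AngII+3W. Both AngII libraries were above all others, those of AngII+2W were above CTRL, and those of AngII+3W overlapped CTRL. The log2 fold change in AngII was 1.73 ± 0.43, which did not pass at 0.05 (edgeR, FDR = 0.0669). The same difference passed with DESeq2 (FDR = 0.000524), with the likelihood ratio test (FDR = 0.00340) and without the filter on low counts (edgeR, FDR = 0.0326). It also passed in a fit of the CTRL and AngII libraries alone (edgeR, FDR = 0.0150) and without AngII+3W replicate 1 or 2, but under no other choice. The log2 fold changes in AngII+2W and AngII+3W were 0.86 ± 0.43 and 0.38 ± 0.43 (edgeR, FDR = 0.538 and 0.763), and AngII+3W differed from AngII by -1.35 ± 0.43 (edgeR, FDR = 0.165, and 0.0220 without AngII+3W replicate 2).

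The summed level of 8 fibroblast markers was 1061 and 654 CPM in CTRL, 1710 and 2169 CPM in AngII, 1842 and 1074 CPM at AngII+2W, and 695 and 1344 CPM at AngII+3W. It moved with Itga11, and none of the 8 was at 0. Per 1000 CPM of fibroblast markers, Itga11 measured 9.87 and 13.4 CPM in CTRL and 14.1 and 18.2 CPM in AngII, which did not overlap. On the same scale AngII+2W gave 10.9 and 13.8 CPM, and AngII+3W 9.98 and 13.5 CPM, both within or close to the CTRL range. The part of fibroblast content in the level of Itga11 was not tested. The genes most like Itga11 over the 8 libraries were Thbs2 (r = 0.988), which encodes the matrix protein thrombospondin 2, Dpp7 (r = 0.986), a peptidase gene, and Col14a1 (r = 0.984), a collagen gene of fibroblasts.

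Itgav, the gene of the αv subunit that pairs with β1, β3 and β5, lies on the plus strand of chromosome 2 at 83724397 to 83806916 (ENSMUSG00000027087). It measured 155 and 112 CPM in CTRL, 125 and 132 CPM in AngII, 144 and 120 CPM at AngII+2W, and 104 and 93.2 CPM at AngII+3W. The libraries of AngII and AngII+2W lay within the CTRL range, and those of AngII+3W below it. The log2 fold changes of -0.06 ± 0.18, -0.02 ± 0.18 and -0.44 ± 0.18 did not pass (edgeR, FDR = 0.898, 0.987 and 0.375). The 3 genes grouped as matrix-remodelling integrins thus gave estimates of -1.07, 1.73 and -0.06 in AngII and did not share a direction. Both genes grouped as smooth muscle integrins were lower. Itga1, whose product is also known from contractile smooth muscle, was outside this grouping, and its estimate of -0.24 did not pass (edgeR, FDR = 0.372).

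Itga1 encodes α1, a receptor for collagen IV that smooth muscle and capillary endothelium carry. The gene (ENSMUSG00000042284) lies on the minus strand of chromosome 13 at 114953096 to 115101964. It measured 330 and 328 CPM in CTRL, 282 and 274 CPM in AngII, 342 and 382 CPM at AngII+2W, and 324 and 287 CPM at AngII+3W. The groups were close, with AngII below CTRL and AngII+2W above it. The log2 fold changes against CTRL were -0.24 ± 0.13, 0.14 ± 0.13 and -0.10 ± 0.13, and none passed (edgeR, FDR = 0.372, 0.784 and 0.794). Gm49395 shares exons with Itga1 on the same strand, had 86 to 132 counts per library, and is identical over 451 bases or 4.1% of the Itga1 transcript, against 5216 to 7321 counts for Itga1.

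Among the β subunit genes, Itgb1 encodes the partner of α1, α5, α7, α8 and α11. It lies on the plus strand of chromosome 8 at 128685654 to 128733200 (ENSMUSG00000025809). It measured 820 and 561 CPM in CTRL, 503 and 533 CPM in AngII, 564 and 491 CPM at AngII+2W, and 377 and 373 CPM at AngII+3W. The AngII and AngII+3W libraries lay below CTRL, and AngII+2W overlapped it. The log2 fold changes were -0.42 ± 0.20, -0.39 ± 0.20 and -0.88 ± 0.20 in AngII, AngII+2W and AngII+3W (edgeR, FDR = 0.296, 0.548 and 0.121). The last passed with DESeq2 (FDR = 0.000725), with the likelihood ratio test (FDR = 0.0102) and without CTRL replicate 2 (log2 fold change -1.14), but under no other choice.

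Itgb3 encodes β3, which pairs with αv in vascular cells and with αIIb in platelets. The gene (ENSMUSG00000020689) lies on the plus strand of chromosome 11 at 104608000 to 104670476. It measured 99.1 and 104 CPM in CTRL, 32.1 and 47.9 CPM in AngII, 71.4 and 76.0 CPM at AngII+2W, and 23.7 and 38.7 CPM at AngII+3W. As for Itga8, AngII+2W lay between CTRL and the other AngII groups and overlapped none of them. The mean was lower in AngII+3W than in AngII for Itgb3 (31.2 and 40.0 CPM), and higher for Itga8 (313 and 249 CPM). Over the 8 libraries r between the 2 genes was 0.922. The log2 fold change was -1.34 ± 0.26 in AngII (edgeR, FDR = 0.0312), -0.46 ± 0.25 in AngII+2W (edgeR, FDR = 0.577) and -1.70 ± 0.26 in AngII+3W (edgeR, FDR = 0.0565). Per 1000 CPM of smooth muscle markers, Itgb3 measured 9.31 and 12.4 CPM in CTRL, 16.0 and 19.1 CPM in AngII, 15.8 and 18.6 CPM at AngII+2W, and 11.8 and 10.1 CPM at AngII+3W.
The summed level of 6 platelet markers was 30.0 and 41.1 CPM in CTRL, 22.5 and 30.3 CPM in AngII, 24.7 and 52.6 CPM at AngII+2W, and 23.5 and 17.7 CPM at AngII+3W, with Gp1bb at 0 in AngII+3W replicate 1. The lower sums in AngII and AngII+3W went with the values of Itgb3, and the groups of CTRL, AngII and AngII+2W overlapped. The markers did not share a direction in AngII, where the median log2 fold change of the 6 was -1.01. Pf4 rose from 9.31 and 8.47 CPM to 12.6 and 16.8 CPM, while Ppbp fell from 8.28 and 16.0 CPM to 3.83 and 3.74 CPM. The part of platelets in the change of Itgb3 was not tested. The call of Itgb3 in AngII was lost without either library of CTRL, AngII or AngII+2W, where fewer of all genes passed too. It was also lost with scaling by library totals alone (edgeR, FDR = 0.0577), and log2 fold changes were -1.66 to -1.08 over all 8 omissions. The difference in AngII+3W passed with DESeq2 (FDR = 5.98e-08), with the likelihood ratio test (FDR = 2.05e-06) and without the filter on low counts (edgeR, FDR = 0.0158). It also passed without AngII+3W replicate 2 (log2 fold change -2.10), and under no other choice.

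Itgb5 encodes β5, the partner of αv that binds vitronectin. It lies on the plus strand of chromosome 16 at 33829665 to 33949338 (ENSMUSG00000022817). It measured 232 and 208 CPM in CTRL, 119 and 171 CPM in AngII, 204 and 199 CPM at AngII+2W, and 87.9 and 188 CPM at AngII+3W. All 6 libraries lay below CTRL, those of AngII+2W by little. The log2 fold changes of -0.60 ± 0.33, -0.13 ± 0.33 and -0.67 ± 0.33 did not pass (edgeR, FDR = 0.371, 0.933 and 0.459). The estimate in AngII+3W was -1.32 without AngII+3W replicate 2, which passed (edgeR, FDR = 0.0428), and -0.23 without replicate 1 (edgeR, FDR = 0.794). The pseudogene Gm38317 is 99.7% identical to the Itgb5 transcript over 10.5% of its length, so that reads there may be divided between them.

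**Figure D2:**
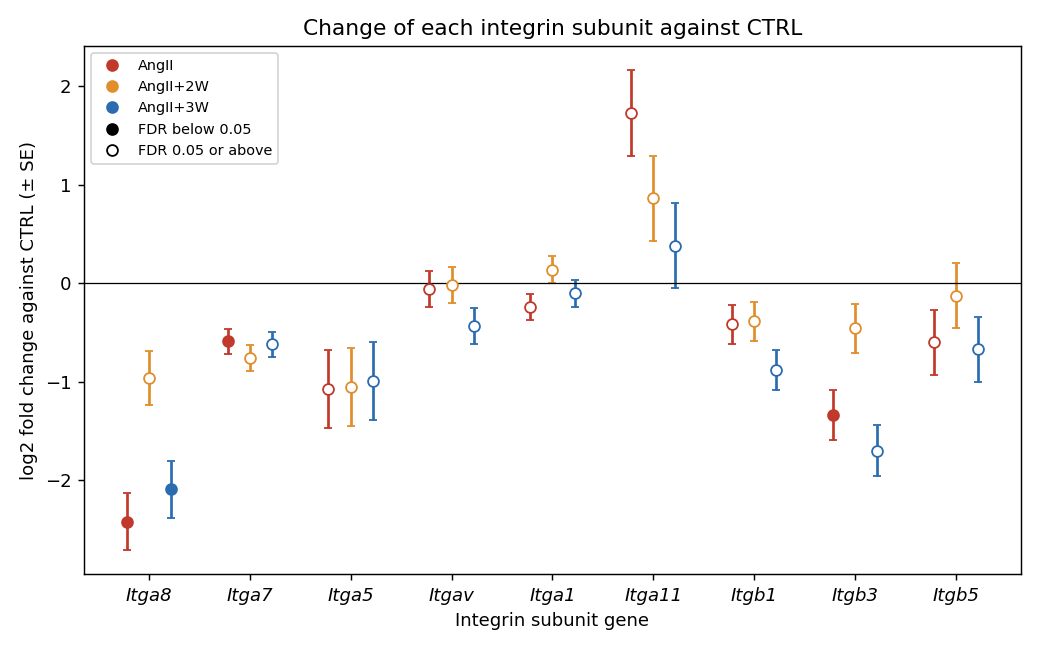
Log2 fold change of each integrin gene against CTRL with its SE (edgeR), for AngII, AngII+2W and AngII+3W; filled points have an FDR below 0.05. Itga8 had the lowest estimate in AngII (-2.42) and Itga11 the highest (1.73), and the 3 estimates of Itga7 and of Itga5 were alike across groups.

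Without AngII+3W replicate 1, the library with skeletal muscle markers, the estimates in AngII+3W were -1.79 for Itga8, -1.40 for Itgb3, -0.90 for Itgb1, -0.53 for Itgav, -0.52 for Itga7, -0.49 for Itga5, -0.23 for Itgb5, -0.20 for Itga1 and 0.90 for Itga11. Each kept its sign, and 0 passed (edgeR quasi-likelihood test), with 2 of 17182 genes called. In that fit 6 members, 5 of them lower, had an unadjusted p below 0.05, as had 10.8% of all genes. DESeq2 was not run without this library. Without AngII+3W replicate 2 instead, 4 members passed, where 2.09% of all genes did: Itga8, Itgb3, Itga5 and Itgb5, with estimates of -2.50, -2.10, -1.79 and -1.32 (edgeR, FDR = 0.0129, 0.0129, 0.0314 and 0.0428), and the estimate of Itga11 turned to -0.47. The 2 AngII+3W libraries thus gave different counts of members past the test.

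No member passed in the comparisons between the AngII groups (edgeR quasi-likelihood test), while DESeq2 and the likelihood ratio test each called 2 in AngII+2W against AngII, 1 in AngII+3W against AngII and 2 in AngII+3W against AngII+2W. At an unadjusted p below 0.05 there were 3 members higher in AngII+2W than in AngII, namely Itga8, Itgb3 and Itga1, where 6.57% of all genes reached that p in this direction. The log2 differences were 1.46 ± 0.28, 0.88 ± 0.25 and 0.38 ± 0.13 (edgeR, FDR = 0.0752, 0.170 and 0.242). Between AngII+3W and AngII there were 2, Itga11 and Itgb1, both lower (10.4% of all genes), and between AngII+3W and AngII+2W there were 3, Itga8, Itgb3 and Itgb1, all lower (4.22% of all genes). Of the genes tested, 28 (0.163%), 276 (1.61%) and 0 passed the edgeR quasi-likelihood test in these 3 comparisons. The number of members whose libraries did not overlap those of CTRL was 8 in AngII (7 lower and 1 higher), 7 at AngII+2W (5 lower and 2 higher) and 8 at AngII+3W (all lower). Over all genes the libraries did not overlap for 49.2%, 43.8% and 38.1%, and were lower for 24.9%, 22.2% and 18.3%; they were higher for 24.4% in AngII and 21.7% in AngII+2W.

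Levels were set against each other between genes per kb of the longest coding transcript. In CTRL, Itga8 had the highest level, 230 CPM per kb (187 to 273), and overlapped Itgb1 at 181 (147 to 215). Itgb5 at 67.0 and Itga5 at 66.1 CPM per kb overlapped each other, Itga7 at 31.5 and Itga1 at 30.0 followed, then Itgav at 18.9 and Itgb3 at 17.5, which overlapped, and Itga11 was last at 1.93. In AngII, Itgb1 was first at 136 CPM per kb, Itgb5 at 44.2 and Itga8 at 42.9 overlapped, and Itga5 at 31.4, Itga1 at 25.3, Itga7 at 20.9 and Itgav at 18.2 followed, of which Itga5 overlapped both Itgb5 and Itga1. Itgb3 at 6.92 and Itga11 at 6.41 CPM per kb were the lowest in AngII and overlapped. In AngII+2W, Itgb1 at 138 and Itga8 at 118 CPM per kb were again the first of the 9, and in AngII+3W they were at 98.3 and 53.8.

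On the same scale, Itga8 made up 63.1% and 57.6% of the summed level of the 6 α subunit genes in CTRL, 30.1% and 29.1% of it in AngII, 54.3% and 51.0% at AngII+2W, and 32.7% and 37.3% at AngII+3W. Itga8 was the most abundant of the 6 per kb in each of the 8 libraries, and its share in AngII+2W lay between those of CTRL and the other treated groups. The share of Itga11 was 0.488% to 0.543% in CTRL and 3.59% to 5.14% in AngII. The counts of Itga8 were 1.93 and 1.94 times those of Itgb1 in CTRL, 0.471 and 0.491 times in AngII, 1.31 and 1.29 times at AngII+2W, and 0.626 and 1.04 times in AngII+3W. The counts of Itga8 were 151 and 124 times those of Itga11 in CTRL, 9.79 and 6.62 times in AngII, 36.6 and 42.9 times at AngII+2W, and 34.0 and 21.5 times in AngII+3W. This ratio of the nephronectin receptor gene to the collagen receptor gene did not return to the CTRL range in any AngII group. Such ratios within a library show that 2 genes changed unequally and depend on no scaling between libraries.

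**Figure D3:**
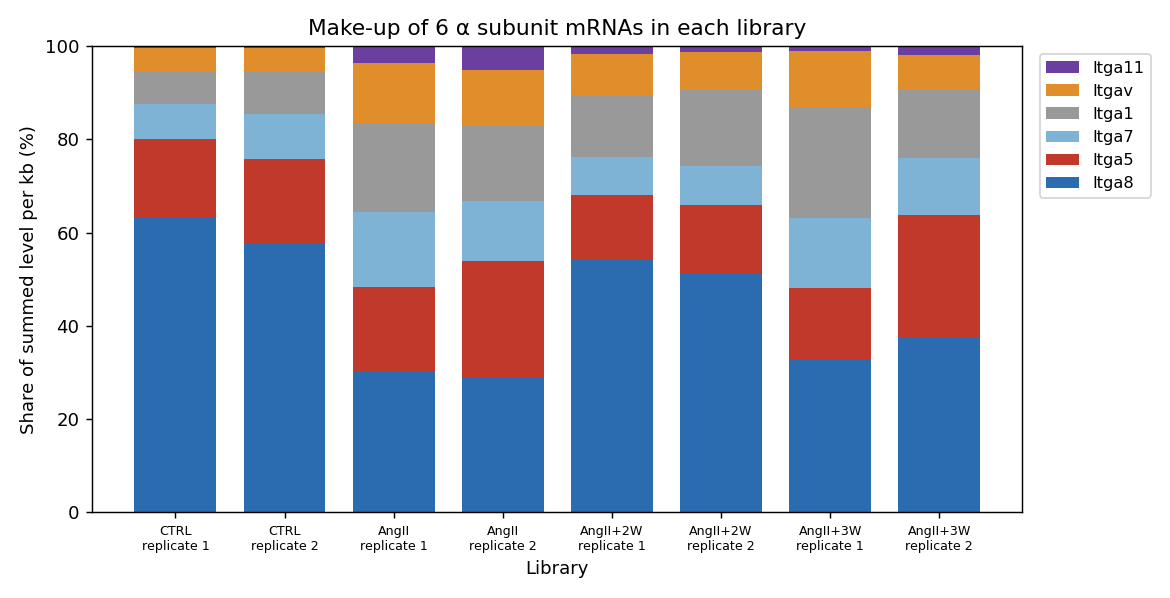
Share of each α subunit gene in the summed level per kb of the 6 genes, in percent, with 1 stacked bar per library. Itga8 made up 57.6% to 63.1% in CTRL, 29.1% to 30.1% in AngII, 51.0% to 54.3% at AngII+2W and 32.7% to 37.3% at AngII+3W.

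Of the 17 other integrin subunit genes, 16 were tested, without Itgad. In AngII 2 were higher and 1 lower, where 2.90% and 2.20% of all genes were. None passed in AngII+2W or AngII+3W against CTRL (edgeR). There 4 (2 higher and 2 lower) and 3 (1 higher and 2 lower) had an unadjusted p below 0.05. Of all 17182 genes, 1838 and 2150 had such a p. Itga2, of a collagen receptor of epithelium and platelets, measured 4.14 and 4.66 CPM in CTRL and 9.77 and 13.3 CPM in AngII (log2 fold change 1.39 ± 0.25, edgeR, FDR = 0.0252). Itgam, of the myeloid integrin CD11b, measured 14.2 and 16.7 CPM in CTRL, 33.7 and 43.1 CPM in AngII and 10.7 and 13.2 CPM at AngII+3W. It rose in AngII (1.31 ± 0.25, edgeR, FDR = 0.0304) and was lower in AngII+3W than in AngII (-1.68 ± 0.25, edgeR, FDR = 0.0297). Summed leukocyte markers moved with it, at 253 to 305 CPM in CTRL, 568 to 1021 CPM in AngII and 213 to 343 CPM at AngII+3W, and their part in the change was not tested. Itga3, of a laminin receptor, fell from 99.6 and 90.9 CPM to 32.4 and 42.5 CPM in AngII (-1.35 ± 0.28, edgeR, FDR = 0.0402). Itga9, chosen after its values were seen, measured 510 and 406 CPM in CTRL and 150 and 171 CPM in AngII. Its log2 fold change of -1.52 ± 0.35 did not pass (edgeR, FDR = 0.0525).

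Of 25 matrix ligand genes, 3 were higher and 1 lower in AngII, where 2.90% and 2.20% of all genes were. The median log2 fold change of the 25 was 0.36, beside -0.01 for all genes tested. Npnt, which encodes nephronectin, the ligand of α8β1, measured 487 and 285 CPM in CTRL, 89.8 and 99.7 CPM in AngII, 184 and 153 CPM at AngII+2W, and 47.0 and 80.2 CPM at AngII+3W. Its libraries were below CTRL in all AngII groups, and those of AngII+2W were the highest of the 3, as for its receptor gene. Npnt fell in AngII (log2 fold change -2.03 ± 0.32, edgeR, FDR = 0.0179) and AngII+3W (-2.60 ± 0.33, edgeR, FDR = 0.0455). The call in AngII was lost without AngII replicate 2. That in AngII+3W was lost without CTRL replicate 1 or any library of AngII or AngII+2W. In these fits every other call of the table was lost too. Of the fibrillar collagen genes, whose products bind α11β1, Col3a1 and Col1a1 rose in AngII, by 2.83 ± 0.46 and 3.03 ± 0.58 on the log2 scale (edgeR, FDR = 0.0186 and 0.0322). Col1a2, chosen after its values were seen, had an estimate of 2.18 and did not pass (edgeR, FDR = 0.0600). Col1a1 measured 1359 and 828 CPM in CTRL, 6639 and 11178 CPM in AngII, 2651 and 1939 CPM at AngII+2W, and 589 and 1921 CPM at AngII+3W. Spp1, which encodes osteopontin, rose at 4.0 and 110 CPM in AngII against 0.828 and 0.376 CPM in CTRL (6.55 ± 1.49, edgeR, FDR = 0.0497), and the 2 AngII libraries differed widely. In AngII+3W only Npnt of the 25 passed against CTRL, where 0.268% of all genes were called lower. The median of the 25 was -0.50, beside 0.03 for all genes tested.

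**Figure D4:**
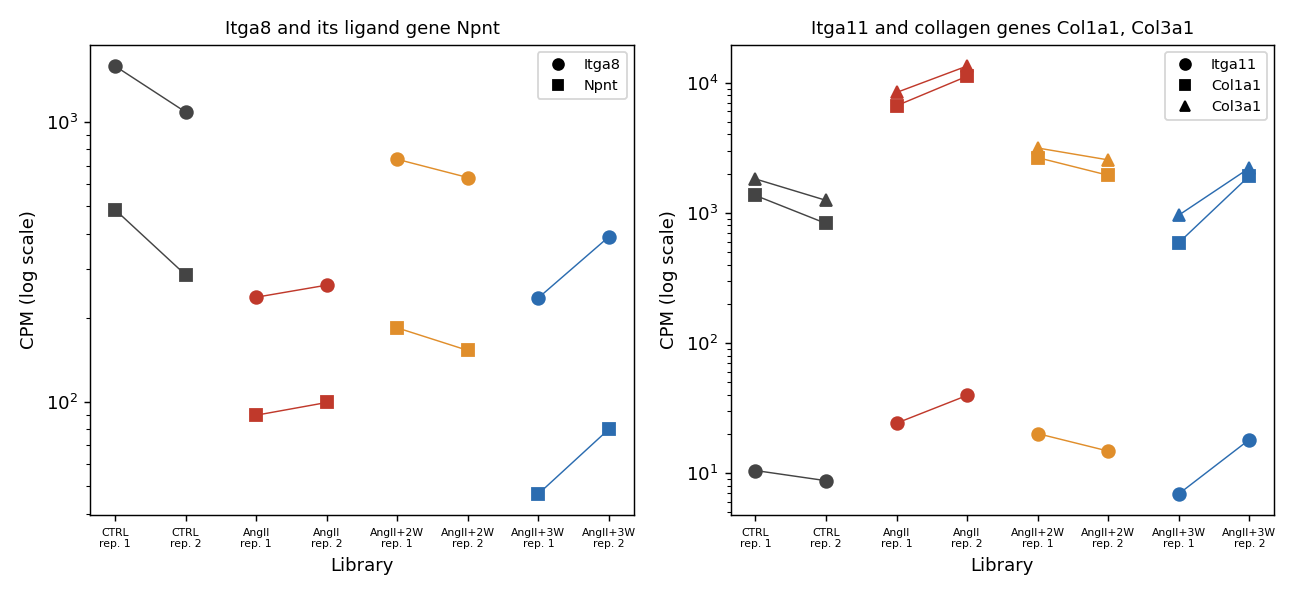
Levels in CPM (log scale) of Itga8 with the nephronectin gene Npnt (left) and of Itga11 with the collagen genes Col1a1 and Col3a1 (right), with 1 point per library and lines joining the 2 libraries of a group. Itga8 and Npnt were lowest in AngII and AngII+3W, and Itga11 and both collagen genes were highest in AngII.

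Inside the cell, talins and kindlins switch integrins on, and the complex of ILK, PINCH and parvin together with adaptors couples them to actin. Of 12 genes of integrin activation, Dab2, which encodes an endocytic adaptor, rose in AngII (log2 fold change 1.27 ± 0.27, edgeR, FDR = 0.0402) and Fermt2, the kindlin-2 gene, fell by 0.73 ± 0.13 (edgeR, FDR = 0.0269). Fermt2 measured 270 and 258 CPM in CTRL and 172 and 146 CPM in AngII. Of 7 genes of the ILK complex, Lims2, which encodes PINCH-2, fell from 126 and 125 CPM to 65.8 and 65.4 CPM (-0.94 ± 0.14, edgeR, FDR = 0.0165). Of 19 adhesion adaptor genes, 6 fell and 0 rose in AngII, where 2.20% of all genes were called lower, and 14 were lower at an unadjusted p below 0.05, as were 9.29% of all genes. The smooth muscle markers were lower in the same comparison (7 of 8 called, median -2.11), and their part in the change of the adaptors was not tested. The 3 with the smallest p were Tns1 (tensin 1, -1.05 ± 0.21), Flna (filamin A, -1.73 ± 0.35) and Zyx (zyxin, -1.50 ± 0.31), with edgeR FDR = 0.0341, 0.0357 and 0.0375. The median of the 19 was -0.91 in AngII, -0.66 at AngII+2W and -0.67 at AngII+3W, beside -0.01, 0.00 and 0.03 for all genes tested. Of 13 genes of adhesion signalling, among them the focal adhesion kinase gene Ptk2, none passed in AngII (edgeR), and the median was 0.06. At an unadjusted p below 0.05, 1 was higher and 1 lower, as were 10.9% and 9.29% of all genes. None of these 51 genes passed in AngII+2W or AngII+3W (edgeR). There 16 and 19 were lower at an unadjusted p below 0.05 and 0 higher, and 6.18% and 7.18% of all genes were lower. Adhesion adaptors were 12 of the 16 and 11 of the 19. Of the 8 smooth muscle markers, 8 and 7 were lower at that p, and their part was not tested.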

How the data were processed

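RNA was measured by sequencing of aortic tissue in 8 libraries, whose labels gave group and replicate number. The authors trimmed and quantified reads in the ARMOR workflow, with Salmon against mouse transcripts of GRCm38.p6, and deposited estimated counts per gene as whole numbers without normalisation; the table holds 35896 genes, and the totals of 18130441 to 21498200 counts set the precision. Length offsets were not applied.

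Gene counts entered edgeR 4.0.16 (R 4.3.3): filterByExpr left 17182 genes, library sizes were scaled by TMM, and all 8 libraries entered 1 quasi-likelihood fit with 1 coefficient per group (4 residual degrees of freedom). P-values were two-sided, adjusted by Benjamini-Hochberg over all genes tested (FDR, threshold 0.05), and measure the spread between pooled libraries. Each SE is the absolute log2 fold change divided by the root of F. The script was tested on simulated data. CPM used TMM library sizes, and levels per kb divided CPM by the longest coding transcript of a GRCm38 annotation. Correlations used log2 CPM (prior count 2) of genes with a mean of at least 5 CPM. The members, the pathway and marker lists and the tests were chosen with earlier results of these data known. Named genes were all members, other integrins past the threshold, up to 3 genes per direction of each pathway list, and the 3 genes most like Itga8, Itga7, Itga5 and Itga11. Alternatives were another scaling, no filter, DESeq2 1.42.0, the likelihood ratio test, a fit of 2 groups, a replicate block and each library left out. Replicates were not duplicates, since each pair differed by more than sampling noise. Promoters came from RefSeq.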

Additional observations from a re-analysis of the deposited data

How the results depend on the processing

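The number of members past FDR 0.05 moved with several choices. In AngII against CTRL it was 3, and it was 1 with library totals alone and 5 with DESeq2. In AngII+2W against CTRL it was 0, and 2 with DESeq2 and 1 with the likelihood ratio test. In AngII+3W against CTRL it was 1, and 0 with library totals alone and with only the 2 groups compared, 2 without the filter on low counts, and 4 with DESeq2 and with the likelihood ratio test. In AngII+2W against AngII it was 0, and 1 without the filter and 2 with DESeq2, the likelihood ratio test and only the 2 groups compared. In AngII+3W against AngII it was 0, and 1 with DESeq2 and with the likelihood ratio test, and in AngII+3W against AngII+2W it was 0, and 2 with both. With 1 library left out, where the remaining library of its group was assumed to vary like the other groups, the 6 counts ranged from 0 to 5, 0 to 1, 0 to 4, 0 to 1, 0 to 1 and 0 to 2 in the same order. Over all genes, library totals alone called 364 higher and 258 lower in AngII against CTRL, and TMM scaling 499 and 378. In AngII+3W against CTRL they called 0 higher and 1 lower, and TMM scaling 3 and 46. Under this choice the counts over all genes thus fell with those of the members. For the other choices the numbers over all genes are not given here. The shifts can therefore not be read as particular to the integrins, and their causes were not tested.

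The labels do not say that a replicate number marks a shared batch, the mice differed, and 2 libraries per group are too few to settle a pairing from the data. The correlation of same-numbered deviations over 11725 genes was above 0 in all 6 pairs of groups, from 0.0111 (CTRL and AngII) to 0.452 (AngII and AngII+3W). With the replicate block 2 members passed in AngII against CTRL, where the call of Itga7 was lost (edgeR, FDR = 0.0537), and 0 in AngII+3W against CTRL, where that of Itga8 was lost (edgeR, FDR = 0.0743).

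Directions of small estimates reversed. With library totals alone, Itgav in AngII+2W against CTRL was 0.0013 and Itga5 in AngII+2W against AngII was -0.0034, and with the replicate block Itga5 in AngII+3W against AngII+2W was -0.027. With 1 library left out, log2 fold changes that crossed 0 ranged, against CTRL, from -0.29 to 0.20 (Itgav, AngII), -0.24 to 0.24 (Itgav, AngII+2W) and -0.47 to 0.90 (Itga11, AngII+3W). For AngII+2W against AngII they ranged from -0.26 to 0.38 (Itga5), -0.092 to 0.17 (Itgav) and -0.076 to 0.13 (Itgb1). For AngII+3W against AngII they ranged from -0.72 to 0.59 (Itga5), -0.15 to 0.080 (Itga7), -0.080 to 0.64 (Itga8) and -0.72 to 0.37 (Itgb5), and for AngII+3W against AngII+2W from -0.74 to 0.57 (Itga5) and -1.33 to 0.049 (Itga11).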

Other observations

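Of the 25 matrix ligand genes, 5 were lower in AngII+3W than in AngII (edgeR quasi-likelihood test with Benjamini-Hochberg adjustment): Postn, Col3a1, Thbs1, Fbn1 and Col4a1, with log2 differences of -1.81, -2.78, -2.13, -1.88 and -1.13 and FDR = 0.0280, 0.0383, 0.0417, 0.0447 and 0.0475. They encode periostin, collagen III, thrombospondin 1, fibrillin 1 and a chain of basement membrane collagen. The median over the 25 ligand genes was -0.84 in this comparison, beside 0.04 over all genes tested. Of all 17182 genes tested, 227 were called lower. The medians of the fibroblast and leukocyte markers were -0.93 and -1.57 in the same comparison, and their part in the change of the ligand genes was not tested. The 5 genes were chosen after their values were seen.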
